A study of Gallus gallus with 6 samples.

Results

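The array described here compared RNA from chicken macrophages after 1 h with whole E. coli of the XL10 strain, in channel 1 per the labels, with RNA from unstimulated macrophages, in channel 2. The macrophages were derived from peripheral blood, total RNA was labelled, and the series held 5 other arrays of the same time course with E. coli or with lipopolysaccharide (LPS) from S. typh. All named genes of the array were taken, chosen by annotation and not by their values: of 2253 named genes, 2251 had a ratio, and TMEM19 and TNFRSF6B had none. The labels do not say how many birds gave the cells or whether cells were pooled, and give no age or breed. Only 1 array of this kind was used, so no test between the groups was possible, and every value describes 1 pair of RNA samples.

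Ratios are log2 values as deposited, with base 2 assumed, less the median of the array, so a value of 1 is a 2-fold difference between the channels. Each clone of cDNA was spotted in 3 copies, called copy 1, 2 and 3, and the value after each ± is the SD of a gene's spots on this array. That SD holds technical spread only, and for a gene with several clones it also holds differences between the clones. The labels state no numerator and no dyes, and the title puts the control before E. coli although E. coli is channel 1. The direction is therefore unsettled, and signs are those of the deposited table. If the ratio is channel 1 over channel 2, a positive value is more RNA after E. coli. If it runs the other way, every sign below turns, and each positive count becomes the negative one. The array measures bulk RNA, in which fewer cells of a type and less RNA per cell cannot be told apart.

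Macrophages detect Gram-negative bacteria through pattern recognition receptors, among them the toll-like receptors that bind LPS, lipoproteins, flagellin and bacterial DNA. These receptors act through adaptor proteins and kinases to free NF-kB, a family of transcription factors held in the cytoplasm by inhibitors of the IkB family. NF-kB then drives chemokines, which recruit other leukocytes, and cytokines such as interleukin 1 beta, and it also drives its own inhibitors, which end the signal. Mitogen-activated protein kinases run beside this pathway and act on the AP-1 factors FOS and JUN within minutes.

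The ratios of the array leaned to the positive side. Of the 2251 genes, 366 were at least 2-fold from the array median, which is 16.3% of genes, and of these 332 were positive (14.7%) and 34 negative (1.51%). Past 4-fold were 93 positive and 5 negative genes, and past 8-fold 20 positive and 1 negative. The median gene stood at -0.01, with quartiles of -0.32 and 0.52 and a range from -3.29 to 6.0. The copies of a clone differed by a median SD of 0.19, and 241 positive and 23 negative genes had at least 3 spots that all shared 1 sign. For 111 positive and 4 negative genes every one of at least 3 spots was past 2-fold on its own. By contrast, 124 of the 366 had an SD over spots of 1 or more and 67 had fewer than 3 spots.

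Brightness moved with the ratio. The only intensity used here was that of the LPS 2 h array, a separate array with RNA from LPS-treated cells, and genes were set into 4 equal groups by it. From the dimmest to the brightest group the median ratio was 0.62, 0.05, -0.18 and -0.20, and the share of genes past 2-fold was 40.7%, 10.3%, 6.41% and 7.64%. The dimmest group held 211 of the 332 positive and 18 of the 34 negative genes, and its median SD over spots was 0.54, against 0.16 in the brightest group. When this trend was removed, the split of 332 positive and 34 negative genes became 222 and 89. The part of brightness in any 1 ratio was not tested, and genes at or above the median intensity, called bright genes below, are therefore given first, with the others called dim. That intensity is a mean over spots, and in 69 of 1127 bright genes the median spot was below the median gene. EMC6, MOB2, NFKBIE, NMI, PDGFA, RAB9A and RGS1 are among these.

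**Figure D1:**
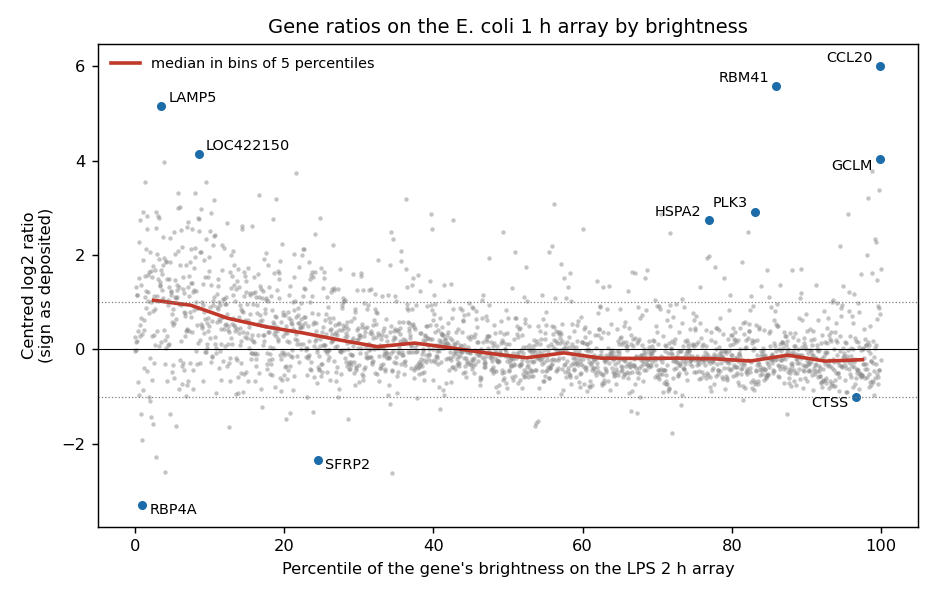
Each point is 1 named gene, with its percentile of intensity on the LPS 2 h array on the x axis and its centred log2 ratio on the E. coli 1 h array on the y axis, with the sign as deposited. The red line joins the medians of bins of 5 percentiles, and dotted lines mark 2-fold. The median falls from 0.62 in the dimmest of 4 equal groups to -0.20 in the brightest, while CCL20 at 6.0, RBM41 at 5.58 and GCLM at 4.03 lie far above the line among bright genes and LAMP5 at 5.16 and RBP4A at -3.29 lie among dim ones.

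Among bright genes the largest positive ratio belonged to CCL20, a chemokine that attracts cells bearing the receptor CCR6. Its spots read 3.57, 8.40 and 6.04 in copies 1, 2 and 3, with a mean of 6.0 ± 2.41. All were far past 2-fold, but they lay far apart, so the size is loosely fixed. RBM41, which carries an RNA recognition motif and belongs to the minor spliceosome in human cells, had 6.77, 5.86 and 4.10, a mean of 5.58 ± 1.36. Its intensities were uneven, at 0.06, 3.86 and 1.56 for copies 1, 2 and 3. GCLM, the modifier subunit of glutamate-cysteine ligase, which starts the making of glutathione, had 3.91, 4.25 and 3.94, a mean of 4.03 ± 0.19. Its copies agreed far more closely than those of CCL20 or RBM41. CCL5, which attracts T cells and monocytes, had 2.84, 3.61 and 3.19, a mean of 3.22 ± 0.38.

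The next bright genes were mixed in function. PLK3, a kinase of the polo family that responds to stress, had 2.79, 2.47 and 3.45, a mean of 2.90 ± 0.50. LSM5, a subunit of the ring that binds the U6 RNA and takes part in mRNA decay, had 2.92, 3.09 and 2.57, a mean of 2.86 ± 0.27. RHBDD1, a rhomboid protease of the endoplasmic reticulum, had 2.16, 2.80 and 2.52, and RSPRY1, a protein with a RING domain, had 1.98, 2.55 and 2.27. All 12 spots of these 4 genes were positive and past 2-fold. NMI, a partner of MYC and STAT proteins, is a case of the opposite kind: its spots read 1.05, 1.45 and 6.76, and its mean of 3.09 ± 3.19 rests on copy 3.

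Several clones of a gene gave a second reading. IL8L1, a chicken homologue of interleukin 8 that attracts heterophils, had 1 clone at 1.68, 1.91 and 1.85 and another at 6.09, 5.05 and 6.04. IL1B, the proinflammatory interleukin 1 beta, had 1.83, 2.02 and 2.08 on 1 clone and 4.78, 5.46 and 4.10 on the other. In both genes the copies of a clone lay close together while the clones did not, so the SD of 2.17 for IL8L1 and of 1.60 for IL1B is mostly a difference between clones. NFKBIZ, a nuclear IkB protein, had clone means of 3.11 and 2.62. HSPA2, a chaperone of the HSP70 family, had 2.91 and 2.56, and its 6 spots lay between 2.0 and 3.02. CLN8, a membrane protein of the endoplasmic reticulum, had 1.16 and 3.50, and LRRC15, a leucine-rich repeat membrane protein, 1.28 and 3.64.

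**Figure D2:**
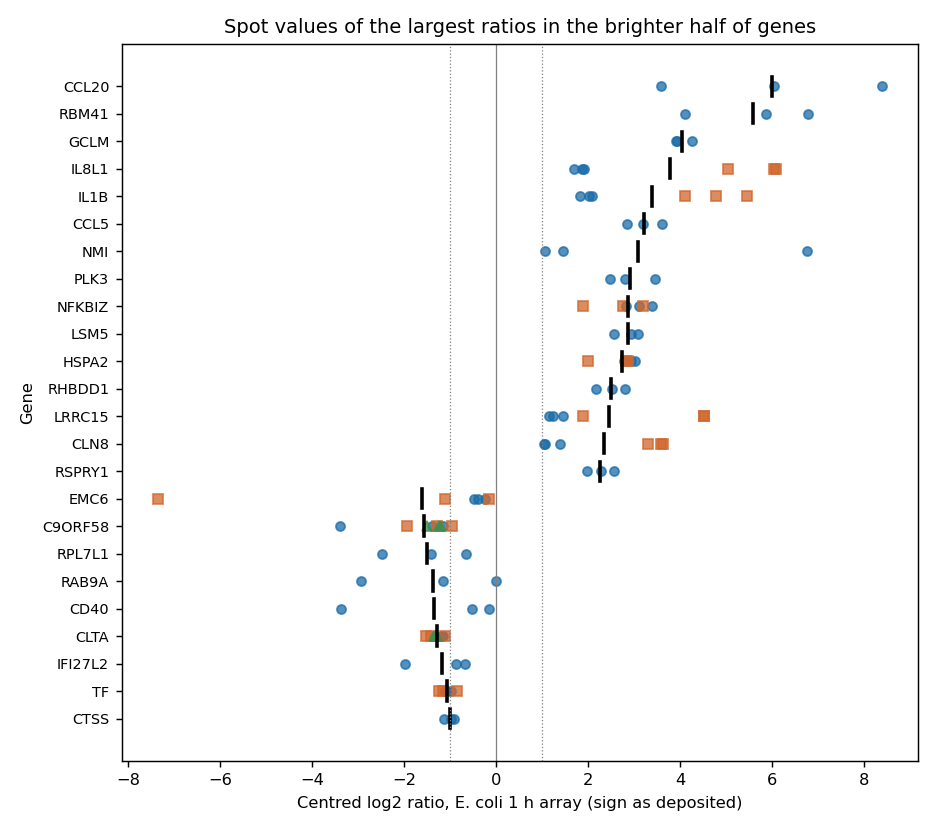
Spot values of the bright genes with the largest positive and negative ratios on the E. coli 1 h array, on the x axis as centred log2 ratios with the sign as deposited, with 1 row per gene. Each point is 1 spot, colours and shapes stand for different clones of a gene, black bars are gene means and dotted lines mark 2-fold. GCLM, CCL5, PLK3 and LSM5 have spots close together, IL8L1 and IL1B fall into a low and a high clone, and the means of NMI at 3.09 and EMC6 at -1.62 rest on 1 spot each.

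Negative ratios among bright genes were small by comparison. CLTA, a light chain of the clathrin coat of endocytic vesicles, had 3 clones at -1.22, -1.35 and -1.31, and its 9 spots gave -1.29 ± 0.13. Transferrin, the iron carrier encoded by TF, had 2 clones at -1.06 and -1.08 and a mean of -1.07 ± 0.14. CTSS, the lysosomal cathepsin S that trims the invariant chain of class II molecules, had -1.14, -0.98 and -0.92, a mean of -1.01 ± 0.12. C9ORF58 had 3 clones at -1.98, -1.40 and -1.32. With the brightness trend removed CLTA stood at -1.11, while TF at -0.86 and CTSS at -0.77 were then within 2-fold. The remaining negative means of bright genes were uneven over copies. EMC6, of the membrane insertion complex of the endoplasmic reticulum, had -1.62 ± 2.83 with 1 of 6 spots at -7.35, and CD40, the costimulatory receptor, had -3.38, -0.52 and -0.15. RAB9A, a GTPase of late endosomes, had -1.15, -0.01 and -2.94, RPL7L1, a ribosomal protein homologue, -1.41, -2.48 and -0.66, and IFI27L2, an interferon-inducible protein, -1.98, -0.87 and -0.68.

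Dim genes carried many of the remaining large ratios, with wider spread. LOC422150 had 1.91, 0.48 and 10.01, ORAI3, a calcium channel subunit, 1.06, 1.33 and 7.14, and CCDC186 0.77, 5.61 and 3.43, so the means of 4.13, 3.18 and 3.27 rest largely on 1 or 2 copies. ITGA4, the integrin alpha 4 chain that binds VCAM1 and fibronectin, was steadier at 3.68, 3.31 and 2.57, a mean of 3.19 ± 0.56. MPI, which interconverts mannose and fructose phosphates, had 3.55 ± 1.68, BYSL, a factor of ribosome assembly, 3.16 ± 0.94, SLC37A2, a sugar phosphate carrier, 2.98 ± 0.97, and BTBD1 2.91 ± 1.22. On the negative side RBP4A, a retinol carrier, had -3.67, -2.27 and -3.92, all on the same side, whereas SFRP2, a secreted modulator of Wnt signalling, had -0.67, -5.38 and -0.97. CELF2, an RNA-binding protein, had -3.97, -0.62 and -0.32, and TGFBR1, a receptor of TGF-beta, -0.75, -2.33 and -1.32. CASP9, the initiator caspase of the mitochondrial death pathway, had -2.28, -0.94 and -1.07. IL15, a growth factor of lymphocytes, had -1.82, -1.21 and -1.68 on a clone at percentile 2.40 of intensity.

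Chemokines lay on the positive side. Of 6 CC chemokines, 3 were past 2-fold positive and none negative, beside 14.7% positive and 1.51% negative over all genes. Their median was 1.31, beside -0.01 over all genes. After CCL20 and CCL5 came LOC395551, a homologue of the monocyte chemokine CCL4, with 1.51, 1.69 and 1.94. CCL4 itself had 0.92 ± 0.20 and CCL1, another monocyte chemokine, 0.90 ± 0.21, both with all 3 spots positive, and CCL26 had -0.18 ± 0.12. The CCL4 family is made of similar paralogues that can share signal on cDNA clones, so LOC395551 and CCL4 may not be separate readings. Of 3 CXC and C chemokines, IL8L1 at 3.77 and CXCL13L2, related to the B cell chemokine CXCL13, at 2.21 ± 0.88 were past 2-fold. CXCL13L2 was on a dim clone, and XCL1 was uneven at -0.93 ± 2.29. Among 4 chemokine and formyl peptide receptors only CCR8, a receptor for CCL1, was past 2-fold, at 1.22, 1.31 and 1.39. CMKLR1, the chemerin receptor, had -0.86 ± 0.21.

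Interleukins and growth factors were divided. Of 12 measured, 3 were past 2-fold positive and IL15 negative, beside 14.7% positive and 1.51% negative over all genes, with a median of 0.28. Besides IL1B these were PDGFA, a platelet-derived growth factor chain, with 1.62, 1.66 and 1.29, and INHBA, the activin A chain, on a dim clone with 0.86, 0.92 and 2.45. IL6, an inducer of the acute phase, had 0.72 ± 0.11 and IL18, a cytokine released by the inflammasome, 0.20 ± 0.08, both within 2-fold. HBEGF, a ligand of the EGF receptor, had -0.60 ± 0.09, LITAF, a regulator of TNF transcription, -0.56 ± 0.04, and TNFSF13B, the B cell factor BAFF, -0.71 ± 0.15. Of 23 cytokine receptors 1 was past 2-fold positive and 2 negative, with a median of -0.29. The positive one, the signal transducer IL6ST, had only 2 spots, at 6.12 and -1.37, and carries no direction. Of the negative ones, IL21R also had only 2 spots, at -0.22 and -3.02, and TGFBR1 was a dim gene. IL2RA, the interleukin 2 receptor alpha chain, had 0.84 ± 0.05, CSF1R, the receptor for macrophage growth factor, -0.66 ± 0.11, and the death receptor TNFRSF10B -0.97 ± 0.09.

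Inhibitors of NF-kB stood together. Of 6 measured genes of the family and its inhibitors, 5 were past 2-fold positive, beside 14.7% over all genes. The subunit REL stood at -0.03 ± 0.21, and the median was 1.29. NFKBIA, the classical cytoplasmic inhibitor, had 2.22, 1.93 and 2.40, and NFKBIE, a relative, had 1.38, 0.88 and 1.16. TNFAIP3, the deubiquitinase A20, had 0.76, 0.83 and 0.92 on 1 clone and 1.42, 1.59 and 1.79 on the other. TNIP3, a protein that binds A20, had 0.64, 2.94 and 0.48, so its mean of 1.36 rests on copy 2. The kinases and adaptors upstream were near the middle of the array. Of 16, BIRC2 and RIPK3 were past 2-fold positive, a share near the 14.7% over all genes, and TRAF5, on 1 spot, negative. The median was -0.06, and it changed sign to 0.11 once the brightness trend was removed. BIRC2, a ubiquitin ligase of TNF receptor complexes, had 12 spots on 4 clones, with 3 clones between 1.53 and 1.80 and the fourth at 0.95, 0.95 and 0.94. RIPK3, a kinase of necroptosis, had 1.20, 1.19 and 0.91. TRAF6, the adaptor ligase below toll-like receptors, had -0.54 ± 0.13, TRAF3 -0.49 ± 0.17, IKBKB, a kinase of the IkB proteins, 0.20 ± 0.35 and MAP3K8, a kinase of the same pathway, 0.66 ± 0.10.

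The receptors for bacterial products were mostly below the array median. Of 14 toll-like receptors and partners, 2 were past 2-fold positive, a share near the 14.7% over all genes, and 1 negative, with a median of -0.36. TLR15, a receptor of birds and reptiles, had 2.30, 1.67 and 2.51 on 1 clone and 1.25, 1.21 and 1.19 on the other, all past 2-fold. The other positive gene, TLR1B, and the negative one, the double-stranded RNA sensor TLR3, were on dim clones, and TLR3 read 0.43, -3.35 and -4.83. LY96, the LPS-binding partner of TLR4, had -0.68 ± 0.11, LBP, which transfers LPS, -0.72 ± 0.17, LY86, which pairs with the receptor homologue CD180, -0.86 ± 0.09, TLR2A, which detects lipoproteins, -0.56 ± 0.15 and TLR21, the bird receptor for bacterial DNA, -0.19 ± 0.18. These 5 all lay within 2-fold.

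Early transcription factors include FOS, a subunit of AP-1, and KLF2, a zinc finger factor. FOS had 1.66, 1.84 and 1.87, a mean of 1.79 ± 0.11, and KLF2 1.72, 2.02 and 2.08, a mean of 1.94 ± 0.19. JUN, the partner of FOS, had 3 clones, of which 2 lay between 1.32 and 1.68 and the last read 0.21 and -0.37. Its mean of 1.03 ± 0.80 thus joins clones that disagree. The last clone was dim, with spot intensities of 0.15, 0.13 and 0.06, against 0.51 to 1.15 for the others. The part of brightness in this difference was not tested. Of 9 factors of the AP-1, ATF and CREB families, FOS and JUN were the only members past 2-fold and the median was 0.22, and of 7 KLF and other early factors KLF2 alone was, with a median of 0.09, beside 14.7% positive over all genes. CEBPB, a factor of inflammatory genes, had -0.60 ± 0.14, KLF6 -0.79 ± 0.13 on 9 spots and BATF3 -0.68 ± 0.05. Among 7 genes of mRNA decay, CNOT1, the scaffold of the deadenylase complex, had 1.21, 0.98 and 1.18 on a dim clone. With the brightness trend removed it stood at 0.96. BTG2, which binds that complex, had a mean of 1.19 ± 1.61 that rests on 1 spot of 6 at 4.43. SOCS1 and SOCS3, inhibitors of cytokine signalling, had 0.92 ± 0.56 and 0.81 ± 0.39, and none of 6 SOCS, STAT and JAK-related genes was past 2-fold.

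Interferon-inducible genes did not lie to the positive side as a list. Of 19, 3 were past 2-fold positive, a share near the 14.7% over all genes, and 1 negative, with a median of -0.38. IRF8, a factor of the myeloid lineage, had 1.04, 1.34 and 1.66, and the guanylate-binding protein GBP1 had 1.18, 1.81 and 1.39 on a dim clone. GVINP1, a member of the giant GTPase family, had 1.65, 0.35 and 1.26, also on a dim clone. With the brightness trend removed GBP1 stood at 0.88 and GVINP1 at 0.63, both within 2-fold. IRF1, a factor of interferon genes, stood at 0.75 ± 0.10, IRF7, the factor of type I interferon, at -0.96 ± 0.34 and IFIT5, which binds RNA, at -1.0 ± 0.09. The antiviral proteins MX1 and OASL had -0.48 ± 0.19 and -0.43 ± 0.10.

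Antioxidant genes split around GCLM. Of 16 measured, GCLM and GCLC, the catalytic subunit of the same enzyme, were past 2-fold positive, a share near the 14.7% over all genes, and none negative, with a median of 0.23. GCLC had 0.79, 1.14 and 1.42 on a dim clone, and with the brightness trend removed its ratio was 0.46. SOD2, the mitochondrial superoxide dismutase, had 0.83 ± 0.09 and TXNRD1, thioredoxin reductase, 0.71 ± 0.20, while thioredoxin (TXN) had -0.55 ± 0.05, the peroxidase PRDX1 -0.67 ± 0.10 and the glutathione transferase GSTA3 -0.62 ± 0.13. HMOX1, heme oxygenase, was near the middle at 0.38 ± 0.28.

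Effector enzymes of activated macrophages depended on the clone. NOS2, the inducible nitric oxide synthase, had 1 clone at 5.67, 3.24 and 3.23 and another with 2 spots at -0.53 and -0.18, so its mean of 1.85 ± 2.61 describes neither. ACOD1, which makes itaconate, had 4 clones, and 11 of its 12 spots were positive, from 0.70 to 3.35, with the last at -0.53. CYBB, the catalytic subunit of the phagocyte oxidase, had -0.59 ± 0.31. In the prostaglandin pathway none of 9 genes was past 2-fold, beside 16.3% over all genes, and PTGS2, the inducible cyclooxygenase, stood at 0.79 ± 0.54. ARG2, mitochondrial arginase, had 1.21, 1.26 and 1.23 on a dim clone, close together, but 0.71 with the brightness trend removed. ASS1, which makes the precursor of arginine, had -0.89 ± 0.08 and OAZ1, the antizyme that limits polyamine synthesis, -0.75 ± 0.11. ACSL1, which activates long-chain fatty acids, had 4 clones at 1.48, 1.10, 1.30 and 2.52, every one past 2-fold. Its list of 16 cholesterol and fatty acid genes had a median of -0.05, with CH25H, which makes 25-hydroxycholesterol, at -0.17 ± 0.11 and HMGCS1, of sterol synthesis, at -0.67 ± 0.11.

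Chaperones of the cytosol fold new and damaged proteins. Of 17, 4 were past 2-fold positive, beside 14.7% over all genes, and none negative, with a median of 0.33, or 0.19 with the brightness trend removed. Besides HSPA2 these were the cochaperone DNAJA1 with 2.33 and 1.44 on 2 spots, HSP90AB1, a constitutive HSP90, with 1.16, 1.42 and 2.78, and CCT7, a subunit of the chaperonin ring, with 1.69, 0.94 and 0.80, all 3 on dim clones. HSP90AA1, the inducible HSP90, stood just within 2-fold at 0.97 ± 0.32 over 9 spots, and HSPA8, the constitutive HSP70, at 0.89 ± 0.14. The mitochondrial chaperones HSPD1 and HSPE1 had -0.01 ± 0.25 and 0.50 ± 0.27. In the endoplasmic reticulum, HSPA5, the main chaperone there, had clone means of 1.51 and 1.12, while HSP90B1 had -0.01 ± 0.10, PDIA3, an oxidoreductase, -0.53 ± 0.16 and P4HB, protein disulfide isomerase, -0.60 ± 0.20. Of these 18 genes, HSPA5 and UGGT1 were the only ones past 2-fold. UGGT1, a folding sensor, read 2.02, -0.02 and 1.64 on a dim clone.

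Solute carriers, which move nutrients and ions across membranes, had 11 of 35 genes past 2-fold positive, beside 14.7% over all genes, and 1 negative, with a median of 0.17. Most of the 11 were dim, and in the dimmest of the 4 intensity groups 211 of 563 genes were positive. SLC16A1, which carries lactate and other monocarboxylates, had 1.66, 1.76 and 2.80 and was a bright gene. SLC7A3, a carrier of arginine and other cationic amino acids, had 5 clones whose 15 spots ran from -0.06 to 3.03. SLC38A2, a carrier of small neutral amino acids, had 1.25, 2.19 and 1.12 on a dim clone. SLC43A3, a purine base carrier, had 2.20, 1.92 and 1.86 and SLC35B2, which brings sulfate donors into the Golgi, 2.72, 1.96 and 2.37, both on dim clones with copies close together. The copper carriers differed, with SLC31A2 at 1.57, 2.05 and 0.98 and SLC31A1 at -1.36, -0.60 and -2.01. Both were on dim clones, and with the brightness trend removed they stood at 1.03 and -1.65. SLC7A5, the large neutral amino acid carrier, had -0.81 ± 0.12. Among glycolytic enzymes GAPDH had -0.59 ± 0.11, TPI1 -0.82 ± 0.13, ENO1 -0.61 ± 0.32 and LDHA -0.54 ± 0.26, while PFKP, a phosphofructokinase, had clones at -0.29, -0.05 and 2.85 and HK1, hexokinase 1, had 0.56 ± 0.24. The median of the 15 genes of glycolysis and lactate transport was -0.22, and SLC16A1 was the only one past 2-fold.

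Among 20 cell cycle genes 3 were past 2-fold positive, a share near the 14.7% over all genes, and none negative, with a median of 0.03 that changed sign to -0.23 once the brightness trend was removed. The 3 were PLK3, CDKN1A, an inhibitor of cyclin-dependent kinases, with 1.72, 2.14 and 1.74, and CCND1, cyclin D1, with 0.91, 1.45 and 1.02. CDKN1A and CCND1 were on dim clones. CDKN1B, a related inhibitor, had -0.77 ± 0.04. Among 49 splicing and RNA-binding proteins 5 were positive, beside 14.7% over all genes, and CELF2 negative, with a median of 0.05. Apart from RBM41 and LSM5 the positive ones were dim, such as the helicase DHX38 at 2.64, 1.57 and 4.25 and the splicing factor PRPF4 at 1.46, 0.75 and 1.56. Chromatin genes had 2 of 27 positive, beside the same 14.7%. One was CHD4, the ATPase of the NuRD complex, with 1.96, 2.41 and 3.12 on a dim clone, and the other KDM5A, whose clones disagreed.

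Secreted and surface proteins of macrophages were mixed. SPP1, osteopontin, had 3 clones at 1.02, 1.14 and 1.09, and its 9 spots gave 1.09 ± 0.15. MMP9, a gelatinase, had clone means of 1.24 and 1.44 and CD44, the receptor for hyaluronan and osteopontin, 0.94 ± 0.16 over 14 spots. The MMP9 clone at 1.24 was dim, with an intensity of 0.18 against 6.91, and its spots read 1.72, 0.37 and 1.65. CD83, a surface marker of activated antigen-presenting cells, had clone means of 2.04 and 1.96 over 6 spots, 2.0 ± 0.21 in all. It was the only positive gene past 2-fold of 13 in antigen presentation, beside 14.7% over all genes. CD40 was the only negative one, beside 1.51%. The median of the 13 was -0.53, or -0.30 with the brightness trend removed. Class I heavy chain BF2 had -0.64 ± 0.11, the invariant chain CD74 -0.53 ± 0.12 and the thiol reductase IFI30 -0.87 ± 0.10. CD200L, a homologue of the inhibitory ligand CD200, had 1.24, 1.81 and 3.0 on a dim clone. RGS1, which ends signals of chemokine receptors, had clone means of 1.09 and 1.12.

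Housekeeping lists differed among themselves. Of 26 lysosomal genes, CTSS was the only one past 2-fold and the median was -0.40, with PSAP, the precursor of sphingolipid activators, at -0.95 ± 0.14 over 12 spots and the proteases CTSZ and CTSB at -0.73 ± 0.16 and -0.65 ± 0.11. None of 12 subunits of the V-ATPase, the proton pump of endosomes and lysosomes, was past 2-fold, and their median was -0.22. Of 54 ribosomal proteins 1 was past 2-fold in each direction, with a median of -0.27, against -0.09 with the brightness trend removed. For comparison, the median over all genes in the 2 brightest of 4 groups was -0.18 and -0.20. Of 56 genes of vesicle traffic 7 were positive and 1 negative, with a median of -0.11. In the ubiquitin system 3 of 41 were positive, with a median of 0.15. Of 16 genes on the proteasome list and 22 translation genes 2 each were positive, with medians of -0.12 and -0.12. On the proteasome list, PSMD1 had 1 clone at 3.72, 1.46 and 3.53 and another at 0.37, 0.40 and 0.12. The other positive gene, PSMC3IP, is listed by its symbol but is not a proteasome subunit, and read -1.06, 1.48 and 4.03. Over all genes 14.7% were positive and 1.51% negative. Of 17 mitochondrial ribosomal proteins 4 were positive, MRPS21, MRPL50, MRPL27 and MRPS35, all on dim clones, with a median of 0.11. With the brightness trend removed MRPS21 had 1.12 and the other 3 were within 2-fold, and in the dimmest of the 4 intensity groups 40.7% of all genes were past 2-fold.

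**Figure D3:**
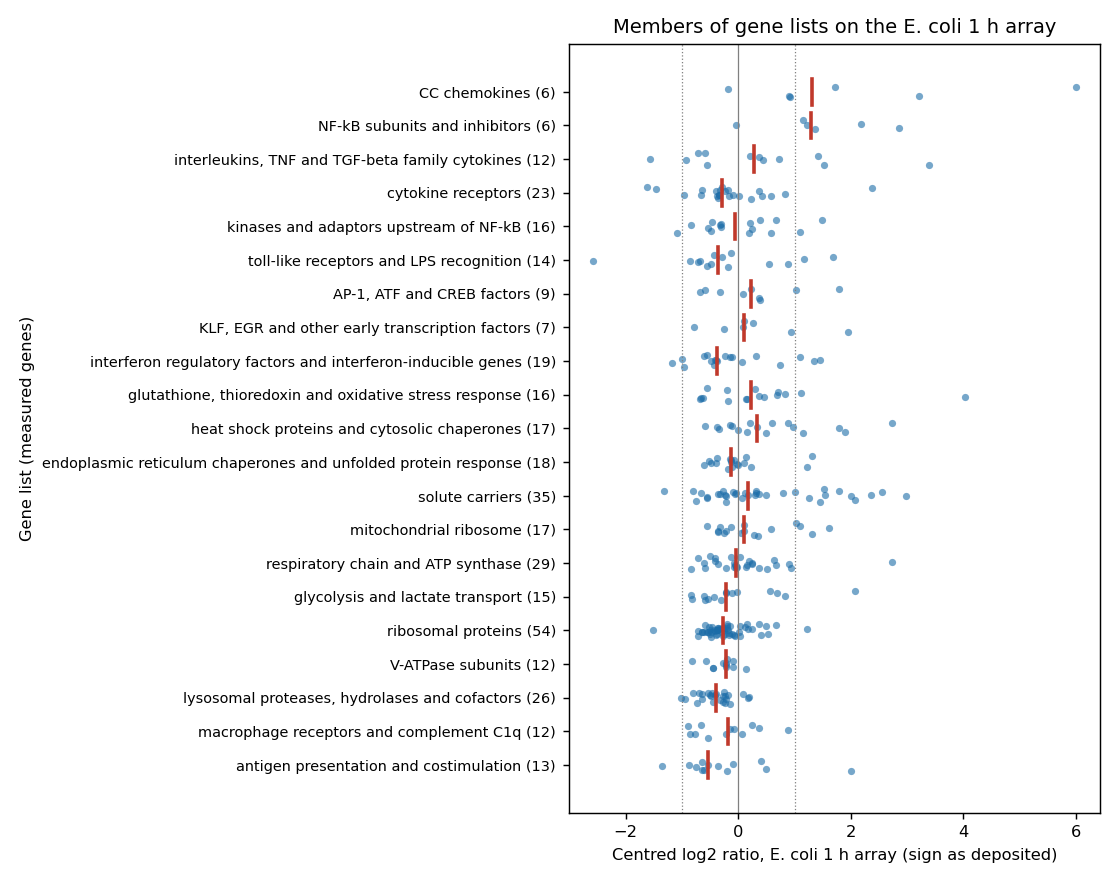
Each point is 1 measured gene of a list on the E. coli 1 h array, with its centred log2 ratio on the x axis, the sign as deposited, and the number of measured genes after the name of each list. Red bars are list medians and dotted lines mark 2-fold. CC chemokines and NF-kB subunits and inhibitors have medians of 1.31 and 1.29, while the medians of lysosomal genes at -0.40, antigen presentation at -0.53 and ribosomal proteins at -0.27 lie on the other side of 0. With the brightness trend removed, which is not drawn, the latter medians are -0.25, -0.30 and -0.09.

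The labelled cell type can be checked only in part, because a ratio gives no level. Of the macrophage list 12 genes were measured, none past 2-fold, beside 16.3% over all genes, with a median of -0.19. Among its defining markers CSF1R had -0.66, the complement chains C1QA, C1QB and C1QC -0.90, -0.07 and -0.76, the scavenger receptor MARCO 0.36 and the lineage factor SPI1 0.07. Markers of other blood cells were few. Of 7 T cell genes only CTLA4, an inhibitory receptor, was past 2-fold, a share near the 14.7% positive over all genes. CTLA4 had 1.27 ± 0.77 on a dim clone, and the T cell receptor chain CD3D had 0.09 ± 0.13. These were the only 2 of the 7 above 0, and the median of the 7 was -0.13, with the lowest at -0.89. The B cell kinase BTK had -0.74 ± 0.10, the 3 thrombocyte genes had a median of -0.13, and the globins HBA1 and HBBA had 0.66 ± 0.18 and -0.33 ± 0.58. Of 2 heterophil genes the defensin AvBD1 had 1.34 and 1.24 on 2 spots of a dim clone and the growth factor receptor CSF3R 0.41 ± 0.33. The part of other cell types in the ratios was not tested.

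Genes with several clones show how far a ratio belongs to the gene and how far to the clone. Of 566 genes with at least 2 measured clones, 110 had a clone past 2-fold, and in 22 every clone was past 2-fold with 1 sign, 19 positive and 3 negative. The 3 were CLTA, TF and C9ORF58. The 19 included IL8L1, IL1B, NFKBIZ, HSPA2, CD83, TLR15, ACSL1, SPP1, MMP9, RGS1, HSPA5, CLN8 and LRRC15, described above. They also included NKIRAS2, an inhibitor of NF-kB activation, with clones at 1.78 ± 1.17 and 1.93 ± 0.52. Both NKIRAS2 clones were dim, with intensities of 0.31 and 0.12, and on the LPS 1 h array they had 0.90 and -0.36. The MMP9 clone at 1.24 was dim too, and the clones of MMP9 had 0.15 and -2.41 on that array. The rest were TM4SF19, NANP, TMBIM1, ADAMDEC1 and NCSTN. Clone intensities were 0.12 and 0.13 for NANP, 0.05 and 0.14 for TMBIM1 and 0.09 and 0.18 for NCSTN. Those of TM4SF19 were 0.44 and 0.31, and of ADAMDEC1 1.48 and 0.30. In the dimmest of the 4 intensity groups 211 of 563 genes were past 2-fold positive. The highest and lowest clone of a gene differed by a median of 0.43, and in 113 genes by 1 or more. AP2M1, a subunit of the clathrin adaptor, had 4 clones between -0.55 and 0.09 and its last one at 4.06 ± 0.04. PTPRC, the leukocyte phosphatase CD45, had 3 clones between -0.16 and 0.14 and another at 3.23 ± 1.18. SLC7A6, an amino acid carrier, had -0.37 on 1 clone and a single spot at 5.47 on the other, and RPS3, a ribosomal protein, had -1.22 and 2.05. The SLC7A6 clone at 5.47 had an intensity of -0.04, the PTPRC clone at 3.23 had 0.28 and the RPS3 clone at -1.22 had 0.01. By contrast, the AP2M1 clone at 4.06 had 14.2. Neither the part of brightness in these differences nor which clone of such a gene carries its name rightly was tested.

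**Figure D4:**
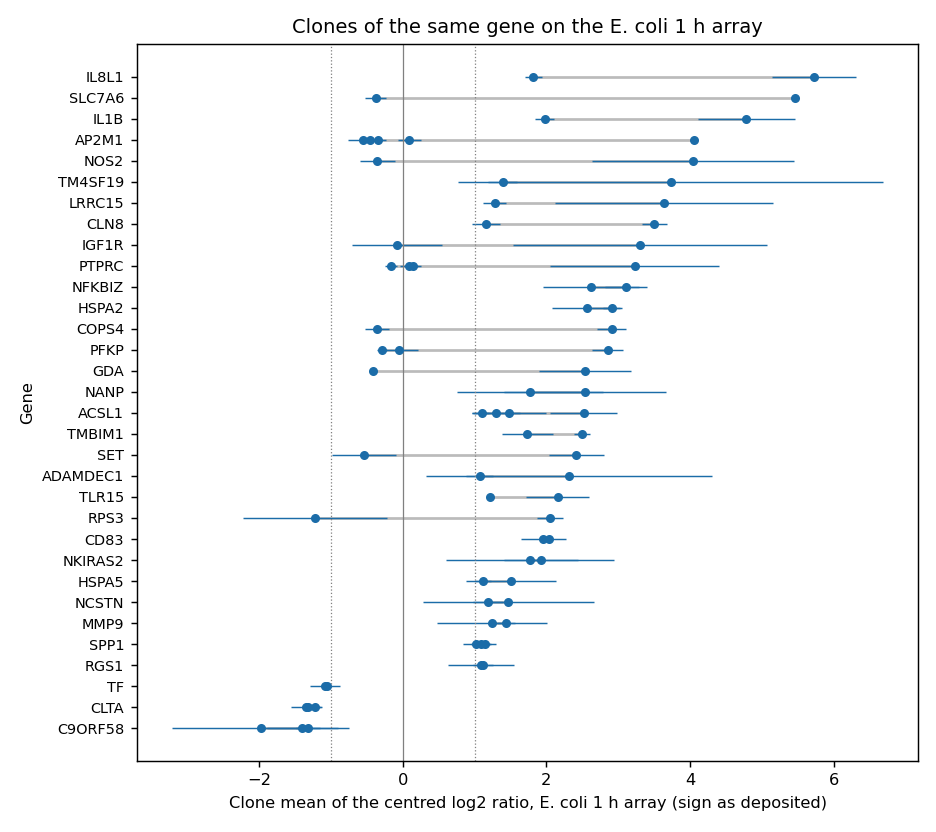
Clone means on the E. coli 1 h array for genes with several clones, as centred log2 ratios on the x axis with the sign as deposited. Each point is 1 clone, thin blue bars are the SD over its spots, grey bars join the clones of a gene and dotted lines mark 2-fold. CD83, SPP1, RGS1, TF and CLTA have clones almost on top of each other, whereas AP2M1, SLC7A6, NOS2 and PTPRC have 1 clone far from the rest.

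The LPS 1 h array, with unstimulated cells in channel 1 and LPS 1 h in channel 2, has the same control condition, so its values are set beside those of E. coli without a test of the difference. On it 11.2% of the 2251 genes were past 2-fold, 3.78% positive and 7.37% negative. Its channels are in the opposite order per the labels, so a gene with more RNA after both stimuli would have opposite signs on the 2 arrays if both ratios ran the same way. Bright genes were set by intensity in LPS-treated cells, so their choice is not independent of the LPS ratios. In the brightest of the 4 intensity groups 88 genes were past 2-fold negative on the LPS array and 3 positive. In the dimmest these counts were 30 and 66. Several of the bright genes with large ratios had opposite signs on the 2 arrays. CCL20 had 6.0 on the E. coli array and -6.46 ± 1.64 on the LPS array, CCL5 3.22 and -3.92 ± 0.08, GCLM 4.03 and -5.78 ± 0.12, and PLK3 2.90 and -3.83 ± 0.24. LSM5 had 2.86 and -2.83 ± 0.45 and KLF2 1.94 and -1.93 ± 0.61, sizes that differ by less than the spread over spots. The 2 clones of IL8L1 had -4.37 and -7.36 on the LPS array and those of IL1B -3.95 and -6.25. The clone with the ratio of larger size was thus the same on both arrays. Unstimulated cells are on both arrays, in opposite channels, and can by themselves give opposite signs and the same order of clones. No agreement between the stimuli is therefore drawn from these values. The odd clone of AP2M1 had 4.06 and -5.91, and its 4 others lay between 0.28 and 0.51 on the LPS array.

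Some bright genes were large on the LPS array and small on the E. coli array. Brightness was itself measured in LPS-treated cells, so these genes were not picked independently of LPS. PTGS2 had -5.44 ± 0.97 with LPS and 0.79 ± 0.54 with E. coli, and CH25H -4.17 ± 0.29 and -0.17 ± 0.11. RASGEF1A, an activator of RAS-family GTPases, had -4.04 ± 0.44 and 0.80 ± 0.08, SOCS3 -3.37 ± 1.46 and 0.81 ± 0.39, and IL18 -3.12 ± 0.30 and 0.20 ± 0.08. LACC1, an enzyme of purine metabolism in macrophages, had -2.92 ± 0.18 and -0.32 ± 0.15, IL6 -2.85 ± 0.03 and 0.72 ± 0.11, and the tetraspanin CD82, with 12 spots on each array, -2.19 ± 0.32 and 0.09 ± 0.23. These genes were picked for an LPS ratio of -2 or lower and an E. coli ratio within 2-fold. A gap in size between the arrays was thus fixed by that choice, and the difference was not tested. Regulators of NF-kB had values past 2-fold on either array. TNFAIP3 had 1.22 with E. coli and -2.61 ± 0.48 with LPS, BIRC2 1.48 and -2.54 ± 0.18, and NFKBIZ 2.86 and -3.95 ± 1.15. NFKBIA had 2.18 ± 0.24 and -1.91 ± 0.19, close in size.

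Other bright genes passed 2-fold on the E. coli array and within 0.5 of the array median with LPS. RBM41 had 5.58 and -0.37 ± 0.90, the latter on 2 spots at 0.27 and -1.0, HSPA2 2.74 and -0.38 ± 0.10, MOB2, a regulator of NDR kinases, 1.97 ± 0.27 and 0.30 ± 0.15, and HSPA5 1.31 and -0.11 ± 0.11. CCR8 had 1.31 ± 0.08 and -0.09 ± 0.13, YTHDF2, which binds methylated RNA, 1.34 ± 0.51 and -0.30 ± 0.19, and SPP1 1.09 and 0.23 ± 0.43. FOS, at percentile 34.2 of intensity and so not a bright gene, had 1.79 ± 0.11 and -0.08 ± 0.06. Of the 17 cytosolic chaperones none was past 2-fold on the LPS array, beside 11.2% over all genes there. Their median on that array was 0.06, with HSP90AA1 at -0.11 ± 0.12 and HSPA8 at 0.15 ± 0.09. CLTA, TF and CTSS had 0.36 ± 0.16, 0.49 ± 0.15 and 0.09 ± 0.11, all within 2-fold.

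**Figure D5:**
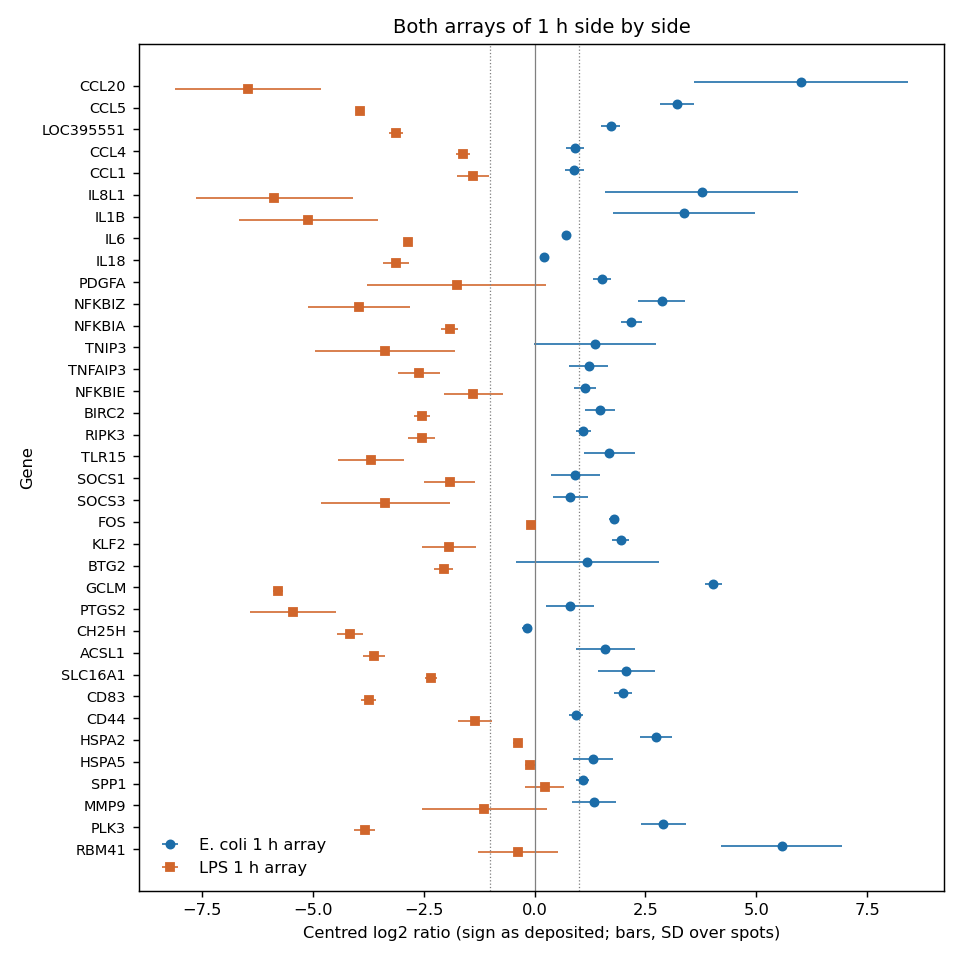
Centred log2 ratios of selected genes on the E. coli 1 h array (circles) and the LPS 1 h array (squares), on the x axis with the sign as deposited, with the SD over spots as bars and 2-fold as dotted lines. The channels of the arrays are in opposite order per the labels. CCL20, CCL5, GCLM and PLK3 are far from 0 on both, PTGS2, CH25H and IL18 on the LPS array, and HSPA2, HSPA5, FOS and RBM41 on the E. coli array.

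A later stage of the same stimulus was on another array, with E. coli 2 h in channel 1 and E. coli 4 h in channel 2, on which 23.1% of genes were past 2-fold, 14.8% positive and 8.3% negative, again with an unsettled direction. On it several of the leading genes were past 2-fold with a negative ratio: CCL5 at -2.35 ± 0.22, LOC395551 at -2.41 ± 0.15, CCL4 at -2.89 ± 0.31 and IL8L1 at -1.80 ± 0.21. TNFAIP3 had -1.40 ± 0.19, KLF2 -1.41 ± 0.16, SLC16A1 -1.48 ± 0.32 and GCLM -1.17 ± 0.11. PLK3 at -0.02 ± 0.12, NFKBIZ at -0.30 ± 0.26 and CCL20 at -0.55 ± 0.14 were within 2-fold there, and HSPA2 was positive at 1.08 ± 0.35. Among dim genes with large ratios at 1 h, MPI had 2.39 ± 0.65, ITGA4 2.17 ± 0.87 and BTBD1 2.15 ± 0.41 on it. SLC37A2 had 1.81 ± 1.16, ORAI3 1.56 ± 0.27 and BYSL 1.19 ± 3.58, so these dim genes were past 2-fold positive. LOC422150 at 0.36 ± 0.81 and CCDC186 at 0.50 ± 0.80 were within 2-fold.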

How the data were processed

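Values came from the deposited table of 6 spotted cDNA arrays, 5 with 2 channels and 1 with a single one. For the 2-channel arrays the deposited values were taken as log2 ratios. For the log base, numerator, dyes, background correction, filters and normalization, the method is not given in the sources used here. No spot of the E. coli 1 h array exceeded 16 in size, and base 2 was assumed. The deposited column of the LPS 2 h array was taken as linear intensity, with 204 values below 0, and served for brightness only. Groups were taken from the labels, each with 1 array, which limits the precision.

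Ratios were centred on the median of the array (0.07 as deposited, 0.29 for LPS 1 h). Of 14718 spots, 14248 had a ratio. A table with annotation of 2007 gave 1 gene for each of 9066 spots, of which 8855 had a ratio, and several for 3, which were not named. Spots were averaged per clone and clones per gene (3022 clones). A RefSeq table of GRCg7b matched 2228 of 2256 gene identifiers and served for names only. No sequence is printed and the planned promoter motif search was not run, since no sequence table was used here.

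The members, the 56 gene lists and the rule for naming genes were chosen with earlier results of these data known. The rule took the 15 largest positive and 10 largest negative ratios among genes past 2-fold with at least 3 spots of 1 sign, the same among genes at or above the median LPS 2 h intensity, members past 2-fold of the immune, signalling and redox lists, up to 5 members of largest size from other lists, and genes whose clones agreed or differed most. Further members were named, after their values were seen, to show genes within 2-fold. Alternatives were no centring, removal of the brightness trend in 20 bins, medians over spots, at least 3 spots of 1 sign, no genes of the dimmest 25%, a 3-fold threshold and, added after the data were seen, each printed copy left out. Steps were tested on simulated data. Python 3.11.15, numpy 2.4.6, pandas 2.3.3, scipy 1.17.1 and matplotlib 3.10.9 were used.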

Additional observations from a re-analysis of the deposited data

Results flagged for a closer look

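Among genes past 2-fold on both arrays of 1 h with at least 3 spots of 1 sign on each, those below had the same sign as deposited on both, while bright genes such as CCL20 and GCLM had opposite signs. The difference between the arrays was not tested, and all 11 clones were among the dimmest genes on the LPS 2 h array, at percentiles from 0.27 to 13.1. In the dimmest of the 4 intensity groups 211 of 563 genes were past 2-fold positive on the E. coli array. Of the same 563 genes, 66 were past 2-fold positive and 30 negative on the LPS array. No opposite response to the stimuli is drawn from these 11 genes. LOC422150 had 4.13 ± 5.14 on the E. coli array and 1.65 ± 1.22 on the LPS array. CIZ1, a nuclear matrix protein of DNA replication, had 2.42 ± 2.08 and 1.80 ± 1.38, and the zinc finger protein ZNF516 2.34 ± 2.16 and 1.29 ± 1.72. COQ5, a methyltransferase of ubiquinone synthesis, had 2.15 ± 1.16 and 1.82 ± 2.04, and the reductase CBR4 1.96 ± 0.68 and 1.35 ± 0.61. ADAP1, a regulator of ARF GTPases, had 1.95 ± 0.85 and 1.57 ± 2.59. CLOCK, a factor of the circadian rhythm, had 1.54 ± 0.62 and 1.93 ± 0.48 and TBL2 1.26 ± 0.37 and 1.32 ± 1.25. EHMT1, a histone methyltransferase, had 1.16 ± 0.94 and 1.04 ± 0.82, and DVL1, an adaptor of Wnt signalling, 1.15 ± 1.0 and 1.23 ± 0.75. PDXDC1 had 1.13 ± 0.37 and 1.41 ± 0.19.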

How the results depend on the processing

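The count of 332 positive genes was 361 without centring, 222 with the brightness trend removed, 305 with medians over spots, 241 with at least 3 spots of 1 sign, 121 without the dimmest 25% of genes and 161 at 3-fold. The 34 negative genes were 29, 89, 34, 23, 16 and 10 under the same alternatives. With copy 1, 2 or 3 left out, a choice made after seeing the data, the positive count was 328, 327 and 301 and the negative 36, 42 and 47. Requiring at least 3 spots of 1 sign, leaving out the dimmest 25% of genes and the 3-fold threshold can only remove genes, by construction. The cause of the shift on removal of the trend was not tested. Single genes were followed for the largest ratios and all list members past 2-fold, 142 genes, some not described above. Of these, 102 were still past 2-fold with the same sign after the trend was removed, 140 without centring and 122 with medians over spots. With copy 1, 2 or 3 left out it was 123 of 142, 129 of 141 and 124 of 141. Of these followed genes, 5 changed sign. With copy 1 left out COX4I1 became -0.90, IL6ST -1.37 and VPS16 -1.26, SLC7A6 became -0.40 without copy 2 and TMEM106B -0.64 without copy 3, and with medians over spots SLC7A6 was -0.29 and TMEM106B -0.59. Of 53 list medians, 7 moved by more than the spread over spots when the trend was removed. No paired analysis was possible because each group held 1 array. Dim spots, with the widest spread between copies, limit what can be said of most genes past 2-fold.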

Other observations

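Clones without a gene name lay past 2-fold more often than named ones on the E. coli 1 h array. Of 1877 such clones with a ratio, 432 were positive and 32 negative, 24.7% in all, against 15.6% of 3018 named clones. This difference was not tested, and the brightness of the clones was not compared. Across clones of named genes the copies correlated with Pearson's r between 0.61 and 0.64 and Spearman's rho between 0.73 and 0.78 (2886 to 2906 clones, which share the array and the RNA and are not independent).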
